A study of Mus musculus with 9 samples.

Results

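The immediate early response genes studied here are Fos, Fosb, Jun, Junb, Atf3, Egr1, Egr2, Egr3, Nr4a1 and Ier2, which were found by gene name in a table of 56980 Ensembl genes. All 10 had a row and all 10 passed the filter on low counts, which kept 16576 genes for testing. Bulk RNA was sequenced from 5 aged mice (20 months old) and 4 young mice (3 months old), all wild-type C57BL/6 mice described as female, with no agent named, and each labelled a biological replicate. The labels name bone marrow as the tissue, while the extraction protocol describes trabecular bone that was mechanically homogenised. Osteoblast, osteocyte, endothelial and skeletal muscle markers all had counts in every library beside the blood cell markers. The comparison asks which transcripts of this tissue differ with age.

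Immediate early genes are transcribed within minutes of a stimulus, from factors already present in the cell, before any new protein is made. Growth factors, cytokines, calcium, mechanical load and stress reach them through MAP kinases and the transcription factors SRF, ELK and CREB. Most encode transcription factors: FOS and JUN proteins pair as AP-1, the EGR proteins bind GC-rich DNA with zinc fingers, and Nr4a1 is an orphan nuclear receptor. Their RNAs are short-lived, and in bone and marrow they are known to follow mechanical load and cytokine signals.

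The promoters of the genes with the highest levels in aged 1 and aged 2 show which stimulus-responsive elements stand close to their starts. RefSeq promoter windows (build GRCm38.p6, 250 bases before to 50 after a start) were found for 7 of the 10 genes, namely Fos, Fosb, Jun, Junb, Atf3, Egr2 and Nr4a1. The bases before the start are printed for 4 of them, with motif matches in capitals and everything else in lower case. The matches are the cAMP response element core TGACG, the TATA box TATAAA, the EGR site GCGNGGGCG and the CArG box to which SRF binds, searched on both strands except for the TATA box, which was searched on the strand of the gene. For Egr2, which had 5 windows, the window upstream of its 67537869 start is shown.
Fos (chr12:85473640-85473889, plus strand): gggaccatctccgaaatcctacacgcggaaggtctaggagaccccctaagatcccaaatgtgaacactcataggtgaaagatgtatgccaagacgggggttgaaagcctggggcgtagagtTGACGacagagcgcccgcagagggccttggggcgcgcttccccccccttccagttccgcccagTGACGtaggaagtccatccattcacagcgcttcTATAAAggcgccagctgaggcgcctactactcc
Atf3 (chr1:191183334-191183583, minus strand): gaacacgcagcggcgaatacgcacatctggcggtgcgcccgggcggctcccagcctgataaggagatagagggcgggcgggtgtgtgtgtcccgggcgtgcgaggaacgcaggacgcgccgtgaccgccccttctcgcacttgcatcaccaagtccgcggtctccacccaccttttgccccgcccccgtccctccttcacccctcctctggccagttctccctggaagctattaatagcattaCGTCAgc
Egr2 (chr10:67537619-67537868, plus strand): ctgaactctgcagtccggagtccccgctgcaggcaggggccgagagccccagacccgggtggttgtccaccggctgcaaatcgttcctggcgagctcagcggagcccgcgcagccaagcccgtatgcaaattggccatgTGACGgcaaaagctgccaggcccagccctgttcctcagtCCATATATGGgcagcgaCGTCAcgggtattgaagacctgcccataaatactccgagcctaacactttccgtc
Nr4a1 (chr15:101266596-101266845, plus strand): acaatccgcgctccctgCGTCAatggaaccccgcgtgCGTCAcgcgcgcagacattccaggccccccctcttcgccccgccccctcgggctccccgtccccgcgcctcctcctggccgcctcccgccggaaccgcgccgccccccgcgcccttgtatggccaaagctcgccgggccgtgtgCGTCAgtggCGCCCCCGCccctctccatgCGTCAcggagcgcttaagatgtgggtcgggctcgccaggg

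The TGACG core, to which CREB can bind, was present in windows of 6 of the 7 genes (Fos, Fosb, Junb, Atf3, Egr2 and Nr4a1), while 20.8% of the 32851 RefSeq windows held it. Nr4a1 held 4 of these cores and Fos held 2, at 129 and 66 bases before its start. The CArG box was present only in windows of Egr2, against 1.63% of all windows. The EGR site was found in Fosb and Nr4a1 (5.55% of all windows), and TATAAA in Fos and, just after the start, in Junb (8.32%). The full cAMP response element TGACGTCA and the AP-1 site TGAGTCA were in 0 of the 7, against 1.79% and 5.2% of all windows. A gene was counted if any of its windows held the motif, while the shares over RefSeq are of single windows. Egr2 had 5 windows, numbered here by position. Its windows 1 and 2 held no TGACG, and window 1 held none of the motifs searched. These matches describe letters in a short window, and a motif outside it would not be seen.

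By their medians the genes also had a compact structure in the GENCODE M21 annotation. Their median gene span was 5287 bases and their median number of exons 2, against 23825 bases and 9 exons over 14043 tested genes with an annotated 3′ UTR. Jun, Junb and Ier2 have 1 exon each, as do 2.61% of those genes. The pentamer ATTTA, the core of the AU-rich elements that mark short-lived RNAs, had a median density of 2.58 per kb of 3′ UTR, against 1.15 over all those genes. It occurred 4 times in Fos and 0 times in Ier2.

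The libraries held 19804883 to 23548594 estimated counts in aged mice and 20120991 to 23336827 in young mice. Young 4, aged 3 and aged 4 stood apart, with a ribosomal protein share of 6.13% to 7.30% of all counts, against 3.17% to 3.43% in the other 6. Hemoglobin genes took 0.697% to 16.1% of the counts in aged and 6.98% to 21.8% in young libraries. Xist had 7909 to 21724 counts in aged 1 to 4 and at most 9 in aged 5 and the young libraries, whereas the Y-linked gene Ddx3y had 0 counts in aged 1 to 4 and 888 to 1721 in aged 5 and the young libraries. These counts go against a female sex in 5 libraries, all the young ones among them, so no comparison without those 5 could be made. For every gene, age and the sex that these counts point to cannot be told apart in aged 1 to 4 against the young libraries. Values of aged 5 against young libraries are given apart. Levels are CPM, counts scaled to library size with TMM factors, unless they are called TPM, the deposited length-corrected values.

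No immediate early gene passed the test between aged and young bone tissue, and several of them were highest in 2 aged mice, aged 1 and aged 2. Aged 1 and aged 2 were the highest pair of the 9 libraries for Fos, Atf3, Egr1, Egr2 and Nr4a1, 5 of the 10 genes, against 8.19% of all genes tested. This pair is not a label of the study and was picked from these same values. Its shares, here and below, are a description and not a test. After each gene's own mean was subtracted, the median of the 10 genes was 0.81 in aged 1 and 0.78 in aged 2 on the log2 scale, −0.14, 0.04 and −0.31 in aged 3 to 5, and −0.39 to −0.16 in the young libraries. Under the edgeR quasi-likelihood test with Benjamini-Hochberg adjustment over all genes, 0 of the 10 genes passed an adjusted p of 0.05, and 0% of the 16576 genes did. At an unadjusted p under 0.05 the count was 1 of 10 (Egr2), against 8.79% of all genes, a share close to that background. The log2 fold change (aged over young) was above 0 for 8 of the 10 genes with a median of 0.48, against 53.5% above 0 and a median of 0.03 over all genes.

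**Figure D1:**
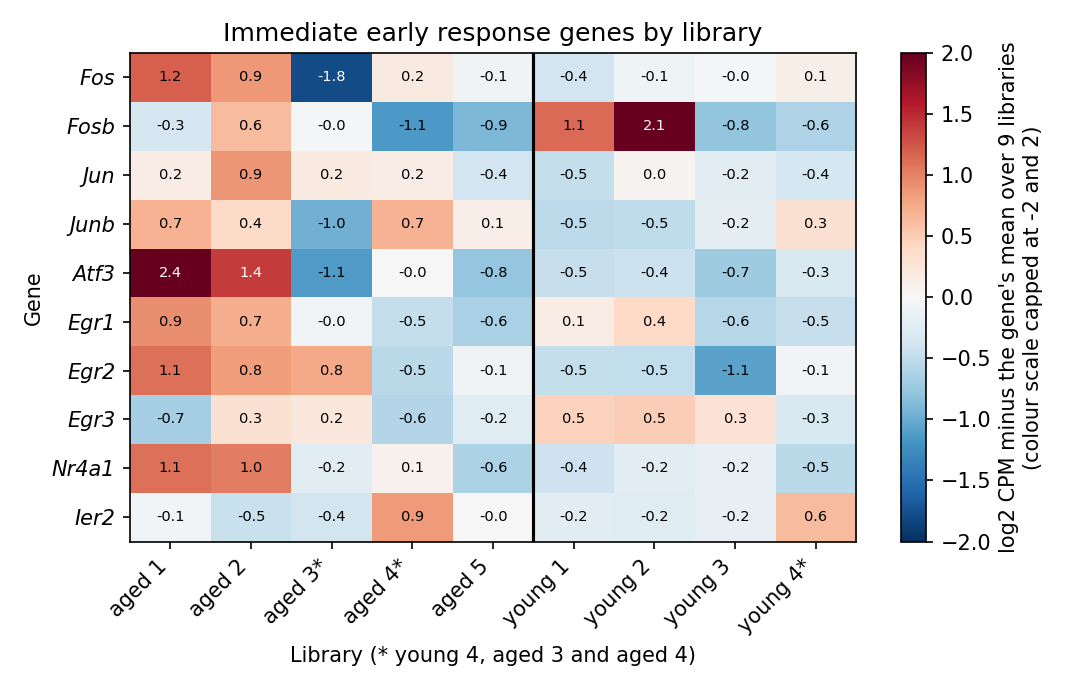
Log2 CPM of each gene (rows) in each library (columns) after the gene's mean over the 9 libraries was subtracted, with the aged libraries left of the line and the young ones right of it. The columns of aged 1 and aged 2 are above the mean for 7 and 9 of the 10 genes, while aged 5 is above it for 1.

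Fos, the AP-1 subunit that heads the rapid response of most cells, had 36.7, 29.3, 4.54, 18.02 and 15.2 CPM in aged 1 to 5, against 12.3, 15.01, 15.6 and 17.3 CPM in young 1 to 4. The young libraries lay close together, whereas the aged ones spread on both sides of them, with aged 3 lowest of all. The mean was 20.7 ± 12.5 CPM in aged libraries (SD, n = 5) and 15.1 ± 2.09 CPM in young libraries (SD, n = 4), a log2 fold change of 0.46 (SE 0.47, edgeR adjusted p = 0.983). Without aged 3 the log2 fold change was 0.72, and without aged 1 it was 0.16.

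Fosb, a close relative of Fos, was rare, with 4 to 59 estimated counts per library. It had 0.43, 0.93, 0.55, 0.21 and 0.26 CPM in aged 1 to 5, against 1.37, 2.70, 0.29 and 0.34 CPM in young 1 to 4. Young 1 and young 2 were its highest libraries, so Fosb did not follow Fos in aged 1 and aged 2, and the groups overlapped. Its log2 fold change of −1.30 (SE 0.73, edgeR adjusted p = 0.733) became −0.49 without young 2.

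Jun, the main partner of Fos in AP-1, had 23.5, 39.2, 23.9, 23.4 and 16.2 CPM in aged 1 to 5, against 15.2, 21.8, 18.2 and 16.4 CPM in young 1 to 4. In CPM, aged 1 to 4 were above every young library, and aged 5 lay among them. In deposited TPM, Jun had 4.65 in aged 3 and 5.75 in aged 4, against 6.32, 8.17, 7.01 and 2.75 in young 1 to 4. The log2 fold change was 0.49 (SE 0.26, edgeR adjusted p = 0.680). Without aged 2 the log2 fold change was 0.28.

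Junb, a JUN protein that is abundant in myeloid cells, had 97.1, 78.6, 30.7, 97.4 and 65.8 CPM in aged 1 to 5, against 41.7, 42.2, 52.7 and 74.0 CPM in young 1 to 4. Aged 3 was the lowest library and young 4 the highest young one. The mean was 73.9 ± 27.6 CPM in aged and 52.7 ± 15.1 CPM in young libraries (SD, n = 5 and 4), with a log2 fold change of 0.49 (SE 0.33, edgeR adjusted p = 0.851). Among the 6 libraries without young 4, aged 3 and aged 4, all 3 aged libraries were above all 3 young ones and the log2 fold change was 0.83 (SE 0.17, edgeR adjusted p = 0.0694).

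Atf3, a bZIP factor induced by stress, injury and cytokines, had the widest range of the 10 genes on the log2 scale. It had 30.5, 15.03, 2.51, 5.61 and 3.28 CPM in aged 1 to 5, against 4.07, 4.17, 3.40 and 4.55 CPM in young 1 to 4. Aged 1 and aged 2 were several times above every young library, aged 4 was just above them, and aged 3 and aged 5 were below all of them. The mean of 11.4 ± 11.8 CPM in aged libraries (SD, n = 5), against 4.05 ± 0.477 CPM in young libraries (SD, n = 4), gave a log2 fold change of 1.49 (SE 0.69, edgeR adjusted p = 0.588), and 0.71 without aged 1.

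Egr1, the best known of the zinc finger factors, had 20.9, 18.2, 10.6, 7.84 and 7.01 CPM in aged 1 to 5, against 12.1, 14.5, 7.39 and 7.94 CPM in young 1 to 4. The groups overlapped widely (log2 fold change 0.30, SE 0.38, edgeR adjusted p = 1.00). Leaving out aged 1 brought its log2 fold change to 0.06.

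Egr2, which acts in Schwann cells, osteoclast precursors and lymphocytes as well as in acute responses, had 3.93, 3.25, 3.06, 1.19 and 1.69 CPM in aged 1 to 5, against 1.25, 1.24, 0.80 and 1.70 CPM in young 1 to 4. Aged 1 to 3 were above every young library, aged 5 was level with young 4, and aged 4 was below 3 of the young libraries. The mean was 2.63 ± 1.14 CPM in aged and 1.25 ± 0.367 CPM in young libraries (SD, n = 5 and 4), from 19 to 91 estimated counts per library. Its log2 fold change was 1.08 (SE 0.43), with an unadjusted p of 0.0323 and an edgeR adjusted p of 0.497.

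Egr3, a relative of Egr2 that calcium signals induce in T cells, was lower in most aged libraries. It had 2.98, 5.91, 5.64, 3.17 and 4.03 CPM in aged 1 to 5, against 6.62, 6.77, 5.88 and 3.87 CPM in young 1 to 4. Aged 1, the highest library of Egr1 and Egr2, was the lowest of Egr3, and the log2 fold change was −0.42 (SE 0.30, edgeR adjusted p = 0.882).

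Nr4a1, an orphan nuclear receptor that is induced by receptor signals in lymphocytes and is needed for patrolling monocytes in mice, had 43.4, 41.1, 17.2, 21.4 and 12.96 CPM in aged 1 to 5, against 15.2, 17.3, 17.97 and 13.9 CPM in young 1 to 4. Aged 1 and aged 2 were far above every young library, aged 4 was slightly above them and aged 5 was the lowest library. The mean was 27.2 ± 14.1 CPM in aged and 16.1 ± 1.88 CPM in young libraries (SD, n = 5 and 4), with a log2 fold change of 0.76 (SE 0.36, edgeR adjusted p = 0.622).

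Ier2, a nuclear protein of the early response, had 53.8, 40.9, 43.5, 101.3 and 55.7 CPM in aged 1 to 5, against 48.3, 47.6, 50.1 and 87.0 CPM in young 1 to 4. Aged 4 and young 4 were its highest libraries and aged 2 its lowest. Its log2 fold change was 0.02 (SE 0.31, edgeR adjusted p = 1.00), with either sign among the alternatives tried.

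**Figure D2:**
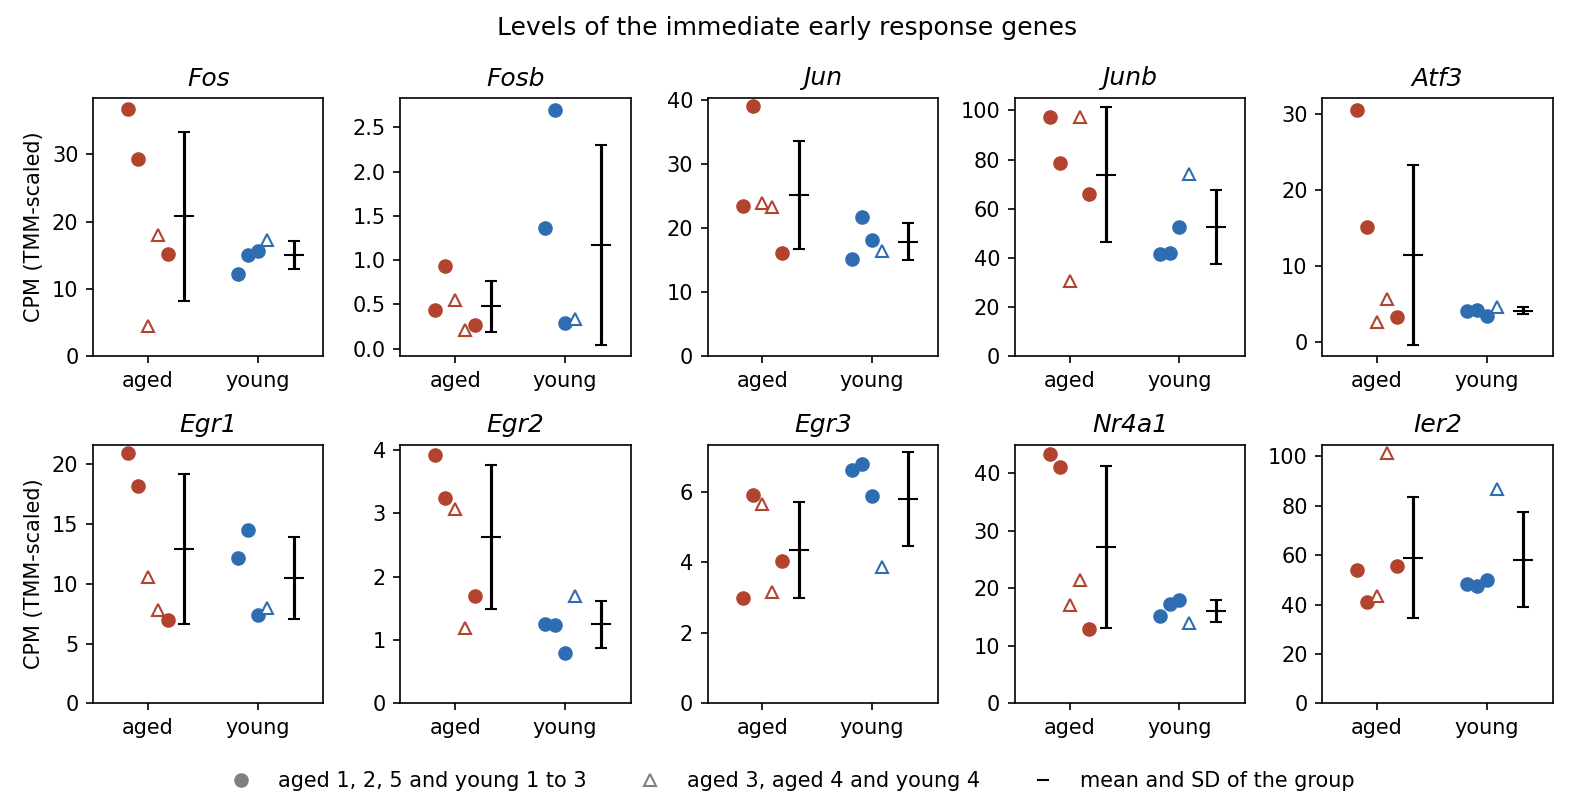
CPM of each gene in every library, aged left of young, with the group mean and SD at the side of the points. Open triangles mark aged 3, aged 4 and young 4, and in the panels of Atf3 and Nr4a1 aged 1 and aged 2 lie far above all other points.

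In these bulk samples fewer expressing cells and less RNA per cell cannot be told apart. No gene of the 10 had groups that did not overlap, against 1.67% of all genes with every aged library above every young one and 2.76% with every aged library below. Per length, Ier2 and Junb were the most abundant of the 10 in aged libraries, at 46.2 ± 17.8 and 52.0 ± 29.5 TPM (SD, n = 5), and in young libraries, at 41.6 ± 5.82 and 31.2 ± 6.35 TPM (SD, n = 4). In the order of aged libraries, Nr4a1 followed with 14.5 ± 11.5 TPM in aged and 7.96 ± 3.19 TPM in young libraries, then Fos with 13.96 ± 11.5 and 8.20 ± 2.27 TPM, Atf3 with 9.29 ± 12.5 and 2.39 ± 0.804 TPM, and Jun with 8.91 ± 4.62 and 6.06 ± 2.34 TPM, in aged and in young libraries (SD, n = 5 and 4). These 4 neighbours in the order differed by less than their spread in aged libraries. The order of young libraries was another, with Fos above Nr4a1, and Jun and Egr1 above Atf3. There Fos and Nr4a1 differed by less than the SD of either, and Egr1 and Atf3 by less than the SD of Egr1. Egr1 had 4.94 ± 3.75 TPM in aged and 3.74 ± 2.00 TPM in young libraries. The 3 rarest were Egr3 with 1.32 ± 0.563 and 1.84 ± 0.912 TPM, Egr2 with 1.18 ± 0.689 and 0.458 ± 0.134 TPM, and Fosb with 0.170 ± 0.133 and 0.413 ± 0.423 TPM, again in aged and in young libraries.

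The 3 libraries that stood apart changed how sharply the age groups differed. With young 4, aged 3 and aged 4 left out, 8 of the 10 genes stayed above 0, with a median log2 fold change of 0.68, against 53.3% of all genes. At an unadjusted p under 0.05, 4 of the 10 (Fos, Junb, Atf3 and Egr2) were higher in aged 1, 2 and 5 than in young 1 to 3, against 12.1% of 16644 genes tested in these 6 libraries (24% in either direction), and 0 of the 10 passed the adjusted threshold (0.012% of all genes passed). The log2 fold change there was 0.93 for Fos (SE 0.31, edgeR adjusted p = 0.135), 2.08 for Atf3 (SE 0.70, adjusted p = 0.138) and 1.43 for Egr2 (SE 0.39, adjusted p = 0.0934). Aged 1 and aged 2 carried these values: aged 5 differed from the mean of young 1 to 3 by 0.10 for Fos, −0.23 for Atf3, −0.37 for Nr4a1 and −0.63 for Egr1 on the log2 scale, while it was higher by 0.54 for Junb and 0.61 for Egr2.

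Within the 3 libraries, aged 3 and aged 4 were compared with the single library young 4 as values without a test. Fos differed from young 4 by −1.91 in aged 3 and 0.06 in aged 4 on the log2 scale, Junb by −1.27 and 0.40, and Atf3 by −0.83 and 0.30. Jun was higher in both (0.54 and 0.51), as was Nr4a1 (0.30 and 0.62), whereas Egr2 was 0.82 higher in aged 3 and 0.48 lower in aged 4. Aged 3 was thus below young 4 for Fos, Junb, Atf3 and Ier2 and above it for the other 6 genes.

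With the library set as a term, 0 of the 10 genes passed, while 1.92% of all genes did. Egr2 and Nr4a1, 2 of the 10, were higher at an unadjusted p under 0.05, against 8.59% of all genes (18.8% in either direction). The log2 fold change was 0.43 for Fos (SE 0.44, edgeR adjusted p = 0.675), 1.38 for Atf3 (SE 0.64, adjusted p = 0.286), 1.08 for Egr2 (SE 0.42, adjusted p = 0.203) and 0.80 for Nr4a1 (SE 0.32, adjusted p = 0.210). Single libraries decided 2 calls in this fit: Junb passed without aged 3 (log2 fold change 0.72, adjusted p = 0.0254) and Nr4a1 passed without aged 5 (1.04, adjusted p = 0.0277). Over all genes, 1633 were called without aged 3, 712 without aged 5 and at most 2 without any other library, against 319 with all 9.

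**Figure D3:**
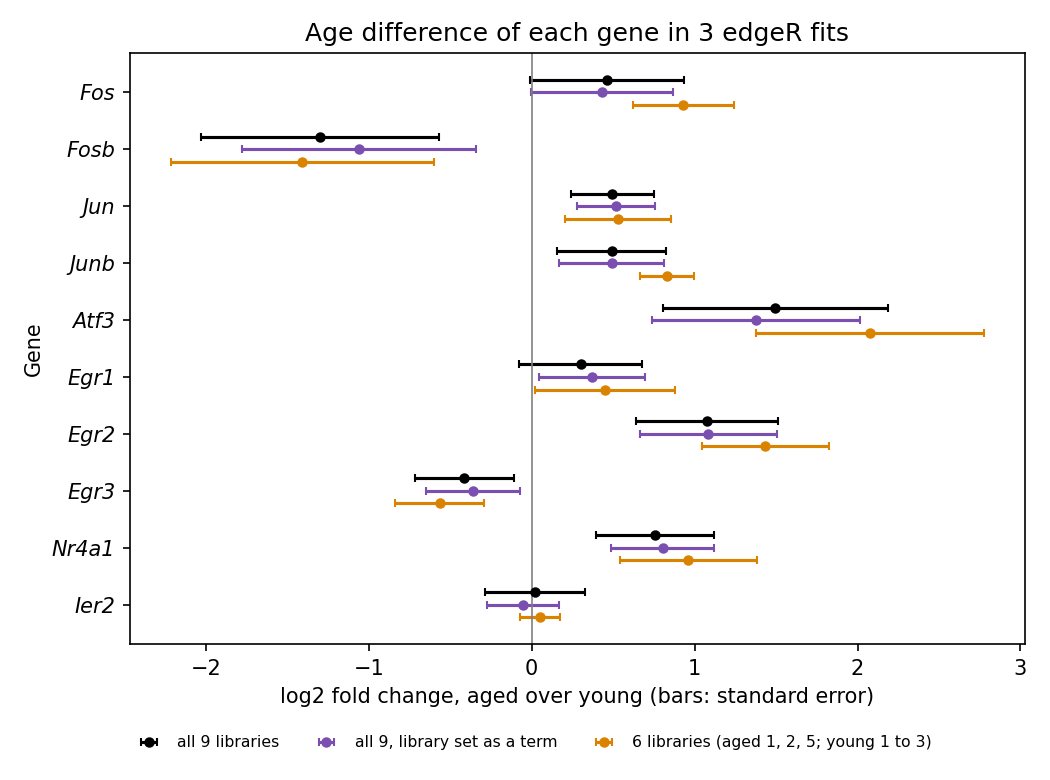
Log2 fold change (aged over young) of each gene with its standard error, in the fit of all 9 libraries, the fit with the library set as a term and the fit of 6 libraries. Junb is at 0.49, 0.49 and 0.83 in the 3 fits, while Fosb and Egr3 lie below 0 in each.

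The set itself differed from the other 6 libraries in 48.6% of all genes (edgeR with age as a term, adjusted p under 0.05), and in 1 of the 10 immediate early genes, with 0 of the 10 lower, against 24% of all genes. Ier2 was higher in young 4, aged 3 and aged 4, at 77.3 ± 30.1 CPM (SD, n = 3), than in the other 6 libraries, at 49.4 ± 5.25 CPM (SD, n = 6), a log2 difference of 0.65 (SE 0.23, adjusted p from edgeR = 0.0385). Aged 3, with 43.5 CPM, did not share this level, and the call was lost with limma-voom and without aged 2, aged 4 or any of young 1 to 4. The other genes ranged from −1.07 (Fosb) to 0.10 (Junb) and 8 of the 10 were below 0, against 51.2% of all genes. The higher level of Ier2 depended on the scaling. In deposited TPM, Ier2 had 33.54 in young 4, 19.5 in aged 3 and 57.24 in aged 4. The other 6 libraries had 37.33 to 63.55 TPM, so young 4 and aged 3 were below all of them.

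Genes outside the 10 were counted in lists chosen with earlier results of these data known. Of 45 other immediate early genes 42 were tested, of which 31 were above 0 and 11 below, with a median log2 fold change of 0.31. Over all genes 53.5% were above 0, with a median of 0.03. None passed over all genes, 9 were higher and 3 lower at an unadjusted p under 0.05, against 4.15% and 4.64% of all genes, and 7 of the 42 (16.7%) had aged 1 and aged 2 as their highest pair, against 8.19%. With the library set term 2 of the 42 rose, Socs3 and Gadd45b, against 102 of all 16576 genes. In the same fit 1 fell, Mafk, against 217 of all genes.

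Socs3, an inhibitor of cytokine receptors that STAT3 induces, had 61.9, 41.0, 12.9, 25.6 and 30.8 CPM in aged 1 to 5, against 11.5, 13.1, 9.74 and 5.98 CPM in young 1 to 4. It shared the high levels of aged 1 and aged 2 and was also above young 1 to 3 in aged 4 and aged 5. With the set term the log2 fold change of Socs3 was 1.88 (SE 0.26, adjusted p from edgeR = 0.0405). Gadd45b, a stress sensor that activates p38 signalling, was at 32.1 ± 6.34 CPM in aged and 17.996 ± 4.03 CPM in young libraries (SD, n = 5 and 4) and rose by 0.78 with the set term (SE 0.15, edgeR adjusted p = 0.0405). Mafk, a small MAF protein that pairs with other bZIP factors, was at 45.4 ± 6.28 CPM in aged and 75.5 ± 3.60 CPM in young libraries and fell by 0.72 (SE 0.12, edgeR adjusted p = 0.0405), with every aged library below every young one. Each of these 3 calls was lost on leaving out aged 1, 2 or 4 or any young library, with adjusted p up to 0.176, and held without aged 3 or aged 5.

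Upstream regulators lay near the background. Of 21 genes of SRF, CREB and MAP kinase signalling, 12 were above 0 and 9 below, against 53.5% of all genes above 0. Their median was 0.03, against 0.03 over all genes, and 0 were called. Map2k1, a kinase that activates ERK, was at 73.4 ± 10.4 CPM in aged and 54.8 ± 6.07 CPM in young libraries (log2 fold change 0.42, edgeR adjusted p = 0.489), with all aged libraries above all young ones. Srf was at 44.98 ± 8.21 and 38.9 ± 1.46 CPM (adjusted p = 0.931), and the SRF cofactor Elk3 at 38.8 ± 10.05 and 28.7 ± 3.61 CPM (adjusted p = 0.655), in aged and in young libraries (SD, n = 5 and 4).

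Feedback genes of MAP kinase and EGR signalling were above 0 in 11 of 14 cases (median 0.15), against 53.5% of all genes (median 0.03). None was called. At an unadjusted p under 0.05, 1 was higher and 1 lower, against 4.15% and 4.64% of all genes. The EGR corepressor Nab1 was at 48.0 ± 4.69 CPM in aged and 30.2 ± 6.78 CPM in young libraries (SD, n = 5 and 4), with no overlap, and rose by 0.75 with the set term (SE 0.12, edgeR adjusted p = 0.0405). Its relative Nab2, itself an EGR target, had 26.6, 21.1, 15.6, 5.30 and 7.495 CPM in aged 1 to 5, against 7.30, 9.43, 7.47 and 6.65 CPM in young 1 to 4 (log2 fold change 0.98, adjusted p = 0.574). Nab2 was thus high in aged 1 to 3, as Egr2 was. Dusp8, a phosphatase of JNK and p38, was at 10.4 ± 2.60 CPM in aged and 20.4 ± 2.78 CPM in young libraries and fell by 0.97 with the set term (SE 0.20, edgeR adjusted p = 0.0492). The calls of Nab1 and Dusp8 were also lost on leaving out aged 1, 2 or 4 or any young library (adjusted p up to 0.212).

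Among other AP-1 partners, 9 of 12 were above 0 (median 0.19), against 53.5% of all genes (median 0.03). At an unadjusted p under 0.05, 3 were higher, against 4.15% of all genes. Batf3, a bZIP factor of dendritic cells that pairs with JUN proteins, had 30.7, 14.1, 0.98, 3.53 and 1.66 CPM in aged 1 to 5, against 0.30, 1.01, 0.92 and 1.09 CPM in young 1 to 4. Batf, another such factor, had 35.2, 22.3, 12.3, 22.5 and 9.08 CPM in aged 1 to 5, against 4.22, 5.31, 5.29 and 10.9 CPM in young 1 to 4. Both were highest in aged 1, as Fos and Atf3 were, with log2 fold changes of 3.63 for Batf3 and 1.66 for Batf (edgeR adjusted p = 0.322 and 0.299).

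Stress genes were counted in the same way. In the heat shock list 10 of 14 were above 0 (median 0.09). In the integrated stress response list 7 of 12 were (median 0.02), against 53.5% of all genes (median 0.03). With the set term these list medians were −0.05 and −0.10. In young 4, aged 3 and aged 4, 8 of the 14 and 7 of the 12 were called higher than in the other 6 libraries, against 4075 of 16576 genes. Aged 1 and aged 2 were the highest pair for 0 genes of either list, against 8.19% of all genes. Dnajb1, a heat shock co-chaperone, was at 52.5 ± 9.40 CPM in aged and 90.2 ± 13.1 CPM in young libraries (SD, n = 5 and 4), with every aged library below every young one, and fell by 0.76 with the set term (SE 0.15, edgeR adjusted p = 0.0435), a call lost without aged 1, 2 or 4 or any young library. Hspa5, an endoplasmic reticulum chaperone, was at 638 ± 245 CPM in aged and 382 ± 85.0 CPM in young libraries (adjusted p = 0.515), and Dnajb4 at 52.0 ± 14.9 and 75.5 ± 13.7 CPM (adjusted p = 0.579). Ppp1r15a, a phosphatase subunit that ends the stress response and is itself an early gene, had 70.8, 132, 385, 135 and 161 CPM in aged 1 to 5, against 290, 322, 260 and 595 CPM in young 1 to 4. It was lowest in aged 1 and aged 2, where Fos was highest (log2 fold change −1.05, adjusted p = 0.545). Psat1 and Atf5 were at 59.7 ± 7.13 and 24.9 ± 5.54 CPM in aged libraries, and at 46.0 ± 9.55 and 17.3 ± 7.47 CPM in young libraries (adjusted p = 0.639 and 0.721).

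Monocyte and macrophage markers shared their highest libraries, aged 1 and aged 2, with the median of the immediate early genes, but differed from it in aged 5. The summed level of 14 markers was 3542, 2989, 2553, 2448 and 2498 CPM in aged 1 to 5, against 1777, 1603, 1795 and 1853 CPM in young 1 to 4, so the groups did not overlap and aged 1 and aged 2 were highest. Of the 14 markers 13 were above 0, against 53.5% of all genes. Their median log2 fold change was 0.77, and none had a level of 0 in any library. Aged 1 and aged 2 were the highest pair for 8 of the 14 (57.1%), against 8.19% of all genes, and not for the other markers. Csf1r and Adgre1, given next, were chosen after their values were seen. Csf1r, the receptor that defines the lineage, had 345, 282, 85.1, 78.4 and 209 CPM in aged 1 to 5, against 151, 162, 141 and 83.2 CPM in young 1 to 4, and Adgre1, which encodes F4/80, had 181, 113, 63.2, 31.1 and 57.1 CPM against 48.1, 48.3, 62.2 and 36.6 CPM. The centred median of the immediate early genes was −0.14, 0.04 and −0.31 in aged 3, aged 4 and aged 5. It was −0.39 to −0.16 in the young libraries. Aged 5 thus lay within the young range of this median, while its marker sum was above every young library. The part of the monocyte and macrophage markers in the levels of the immediate early genes was not tested.

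**Figure D4:**
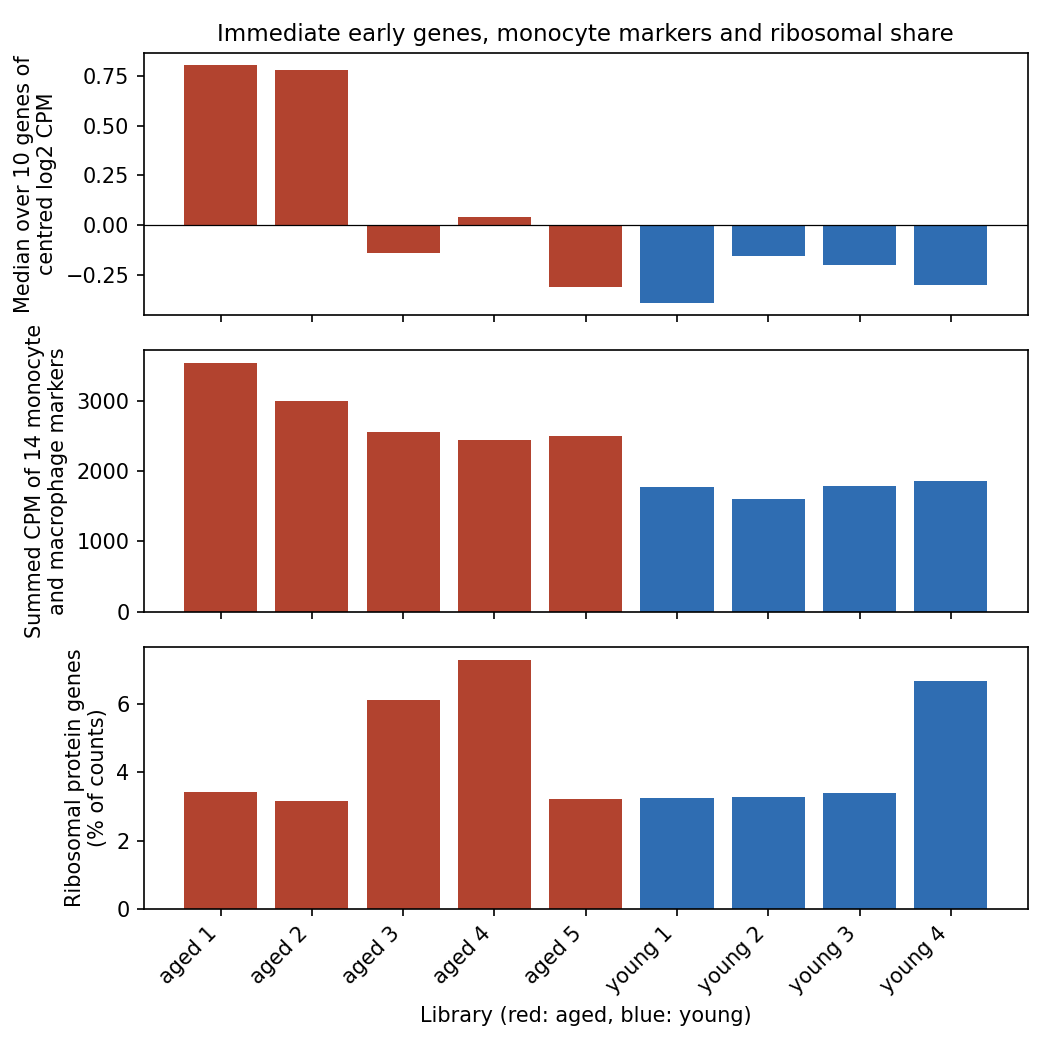
The 3 panels give measures in each library, aged left of young: the median over the 10 genes of centred log2 CPM (top), the summed CPM of 14 monocyte and macrophage markers (middle) and the share of counts in ribosomal protein genes (bottom). Aged 1 and aged 2 are highest in the upper pair of panels, and aged 3, aged 4 and young 4 in the lowest.

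In none of the other 11 marker lists were aged 1 and aged 2 both the highest libraries. Neutrophil markers summed to 18373 to 78990 CPM in aged and 25301 to 56873 CPM in young libraries, with aged 2 lowest, and erythroid markers to 7394 to 202212 CPM in aged and 69301 to 318744 CPM in young libraries, with aged 1 lowest. Osteoblast and osteocyte markers summed to 758 to 2809 CPM in aged and 2555 to 6528 CPM in young libraries. Endothelial markers were at 349 CPM in aged 2 and 224 to 297 CPM in the other aged libraries, against 234 to 260 CPM in young libraries. Plasma cell markers summed to 481 to 1753 CPM in aged and 424 to 744 CPM in young libraries, and T and NK cell markers to 118 to 233 CPM in aged and 87.2 to 157 CPM in young libraries. Their part in the levels of the immediate early genes was not tested.

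Likeness of pattern was measured as the root mean square difference of log2 CPM over the 9 libraries, after each gene's mean was subtracted. The genes nearest to Fos were Zfp493 (0.25), Tnfrsf1b (0.30), Rell2 (0.30), Pla2g15 (0.31) and Slc26a6 (0.32), against a median of 0.92 over all genes tested. Nearest genes are the smallest of these same distances, so they lie below the median by selection. Whether they share a pathway with the gene they resemble was not tested. Tnfrsf1b, the second TNF receptor, had 166, 122, 30.9, 81.1 and 109 CPM in aged 1 to 5, against 83.2, 84.0, 88.7 and 72.4 CPM in young 1 to 4. Among the 10 genes, Junb was nearest to Fos (0.44), and Nr4a1 was nearest to Jun (0.37), Egr1 (0.38) and Atf3 (0.59). The nearest gene to Atf3 was Asb2 (0.28), with 262, 146, 20.4, 37.0 and 24.9 CPM in aged 1 to 5, against 23.5, 35.2, 33.2 and 25.7 CPM in young 1 to 4. Junb lay nearest to Mapkapk2 (0.18), a kinase downstream of p38, and Ier2 to Mapk3 (0.09), which encodes ERK1. The other nearest genes were Pdzrn3 for Jun (0.18), Htra3 for Egr1 (0.27), Enpp2 for Egr2 (0.27), Mex3a for Egr3 (0.15), Gm35154 for Nr4a1 (0.17) and Cacnb3 for Fosb (0.47).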

How the data were processed

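The deposited table gave estimated counts (expected counts) per gene and library, 1 library per column, and each was rounded to a whole number for the fits. The submitters' processing notes name Bowtie 0.12.2 and mm8 with no role. Which counter and annotation made the table is not given in the sources used here. TPM values were deposited by the authors and used only to compare levels between genes. The authors also deposited fold changes (a ratio), log2 fold changes and p-values, from DESeq2 by the name of the table, with no settings given.

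The test was the edgeR 4.0.16 quasi-likelihood F test in R 4.3.3, two-sided, with group as the term, TMM factors, filterByExpr (minimum count 10, total 15) and Benjamini-Hochberg adjustment over 16576 genes at 0.05. Standard errors are the log2 fold change divided by the root of F. Log2 CPM used a prior count of 2. Alternatives used DESeq2 1.42.0 and limma 3.58.1, other scalings and filters, a library set term, a replicate block and each library left out. The fits were tested on simulated data. Libraries labelled biological replicates differed beyond sampling noise in every pair. P-values weigh the difference between groups against the spread between these samples. Library totals were 19804883 to 23548594, and counting error is part of the fitted spread.

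The members and lists were chosen with earlier results of these data known, and the set of young 4, aged 3 and aged 4 likewise. The text names all members, up to 3 genes with the smallest p of each list, and the nearest genes by pattern. A gene that this rule names is not reported here. Csf1r and Adgre1 were chosen after their values were seen. Of 241 list entries 240 matched a row. Promoters came from RefSeq (GRCm38.p6) and gene structure from GENCODE M21, using for each gene the transcript with the longest coding sequence among those with a 3′ UTR, and no coordinates of the files were used.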

Additional observations from a re-analysis of the deposited data

Results flagged for a closer look

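In CPM, young 4 stood far from the other young libraries for Ier2. Its level was 87.0 CPM, against 47.6 to 50.1 CPM in young 1 to 3, and the gap to the nearest library was 0.915 of the range of the group on the log2 scale. Gaps past the limit used arise by chance in about 1 of 20 groups, and 20 groups were examined. In deposited TPM, young 4 was the lowest young library for Ier2, with 33.54, against 41.37 to 46.83 in young 1 to 3. Young 4 also had 6.66% of its counts in ribosomal protein genes, and the part of that share in the level of Ier2 was not tested.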

How the results depend on the processing

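No member was called in aged over young under any of the 19 alternatives to the fit of all 9 libraries, and 180 of 187 member values kept their direction. The 7 others were all Ier2: −0.00674 with limma-voom, −0.0520 with the library set term, −0.0108 with the replicate block, −0.263 without aged 4, and −0.0601, −0.0569 and −0.0458 without young 1, 2 and 3, with 0.280 the highest, without young 4. With the set term and 1 library left out in turn, Ier2 ranged from −0.211 to 0.0895 (0.0195, 0.0895 and 0.0445 without aged 2, aged 3 and young 4). The median log2 fold change of the members was 0.31 to 0.60 on leaving out each library. Over all genes 0 were called, against 360 with DESeq2, 319 with the set term, 13 with the replicate block, 2 without young 4, aged 3 and aged 4, and 0 to 6 on leaving out each library (6 without aged 5), while 1457 genes had an unadjusted p under 0.05 and limma-voom called 0. The set difference was called for 8048 genes, 3094 with the replicate block and 6452 to 8743 on leaving out each library. Members called in it were 1, and 0 with limma-voom, 2 with the replicate block and 0 to 2 on leaving out each library. Deviations of same-numbered libraries from their group means correlated at 0.46, 0.55 and 0.74 across genes for numbers 1, 2 and 4 and at −0.39 for number 3. Not every pair was positive and the labels name nothing shared by a number, so the libraries were not treated as paired, and the block changed no member's call between age groups. Where a value changed, the cause was not tested. Fosb could not be fitted without aged 1 or aged 2 or at 1 CPM in 4 libraries, since its counts of 4 to 59 fell under the filter.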

Other observations

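The deposited TPM and the scaled counts placed young 4, aged 3 and aged 4 differently among the libraries. Nr4a1 had 3.22 TPM in young 4, against 8.96 to 9.94 TPM in young 1 to 3, while its CPM was 13.9 in young 4, against 15.2 to 17.97 in young 1 to 3. Fos had 4.82 TPM in young 4, against 8.92 to 9.65 TPM in young 1 to 3, although at 17.3 CPM young 4 was its highest young library. In aged 4, Nr4a1 had 7.08 TPM, below young 1 to 3, while in CPM it was above every young library. Junb was highest in aged 4 in CPM. Its 45 TPM there was below aged 1, aged 2 and aged 5, at 93.63, 58.6 and 51.51 TPM. Atf3 had 2.44 TPM in aged 4, below young 1 and young 2. The TPM of Jun and Ier2 are given above.

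The authors' deposited table marked 0 of the 10 genes as significant, against 256 of all 56980 genes, and gave an adjusted p below 0.05 to 300 genes, none of them among the 10. In the authors' deposited table Egr2 had a log2 fold change of 1.10 and a p-value of 0.0134, and Atf3 of 1.52 and 0.0205, with adjusted p-values of 0.256 and 0.324.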
